A study of Mus musculus with 11 samples.

Results

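Eukaryotic elongation factor 1-alpha is encoded in the mouse by a pair of genes, *Eef1a1* and *Eef1a2*, and their mRNAs were followed in the tibialis anterior (TA) muscle of C57, *mdx* and Pip6e-PMO-treated *mdx* mice. The members are the probe sets whose deposited gene symbol is *Eef1a1* or *Eef1a2*, which are 2 of the 28350 probe sets in the table, 1 for each isoform. *Eef1a1* is read by probe set 10595183, with 13 probes, and *Eef1a2* by probe set 10490602, with 31 probes. The deposited table places the *Eef1a1* probe set on the minus strand of chromosome 9, from 78326260 to 78329507, over the transcript NM_010106. It places the *Eef1a2* probe set on the minus strand of chromosome 2, from 180882395 to 180891720, over NM_007906. No genome build is named for these positions. Probes of this kind of array lie along the whole transcript, and the table lists the probes of both probe sets as matching a single transcript.

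All mice were males of 14 weeks of age, and the labels give the strain of every mouse, wild type or *mdx*, as C57/B10. The 3 C57 mice were wild type and untreated. The 4 *mdx* mice carried the *mdx* mutation, a nonsense change in the dystrophin gene that removes full-length dystrophin, and were untreated. The other 4 *mdx* mice had received Pip6e-PMO, a morpholino oligonucleotide coupled to a cell-penetrating peptide, which causes the mutated exon to be skipped and so restores a shortened dystrophin, as 1 injection of 12.5 mg/kg into a tail vein when 12 weeks old. No group of *mdx* mice received a vehicle or a control oligonucleotide. RNA came from cryosections of the middle of the muscle, so fibres, blood vessels, connective tissue and infiltrating cells were measured together.

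eEF1A is a GTPase that carries each aminoacyl-tRNA to the ribosome, and after GTP hydrolysis it is recharged by the exchange factor complex eEF1B. Its isoforms are very similar proteins made at different sites. *Eef1a1* is expressed in nearly all cells, whereas *Eef1a2* is restricted to a few terminally differentiated cell types, chiefly skeletal muscle fibres, cardiomyocytes and neurons. In rodent muscle *Eef1a1* is turned down and *Eef1a2* turned up during the weeks after birth, and mice without *Eef1a2*, the wasted mutants, lose muscle and motor neurons from weaning. In regenerating muscle *Eef1a1* is made again.

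Because the genes are regulated separately, the 250 bases before each annotated transcription start are shown, from RefSeq on GRCm38.p6, each written along its own strand with the letters of a GC box (GGGCGG on either strand) in capitals. The *Eef1a1* window is chr9:78481725-78481974, minus strand, and the *Eef1a2* window is chr2:181157016-181157265, minus strand.
Eef1a1: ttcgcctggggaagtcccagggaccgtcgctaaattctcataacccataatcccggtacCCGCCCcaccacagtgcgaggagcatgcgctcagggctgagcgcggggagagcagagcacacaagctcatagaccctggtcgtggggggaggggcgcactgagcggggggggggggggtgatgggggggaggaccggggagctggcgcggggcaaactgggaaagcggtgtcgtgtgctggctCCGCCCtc
Eef1a2: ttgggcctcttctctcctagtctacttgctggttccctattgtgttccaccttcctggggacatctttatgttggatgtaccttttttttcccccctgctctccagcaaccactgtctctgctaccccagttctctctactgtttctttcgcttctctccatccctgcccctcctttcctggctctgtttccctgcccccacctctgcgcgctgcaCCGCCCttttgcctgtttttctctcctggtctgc
The *Eef1a1* window had a GC content of 68% and 18 CpG dinucleotides, more than 78.3% of the 32851 promoter windows of the same length. The *Eef1a2* window had a GC content of 54% and 4 CpG dinucleotides, close to the median of 6 over all windows. A GC box, a letter pattern found in 32.7% of all windows, was matched at 191 and 8 bases before the start of *Eef1a1* and at 34 bases before the start of *Eef1a2*. The E box CANNTG, the letters that muscle-determining helix-loop-helix factors read, was matched in neither window and in 66.2% of all windows. CCAAT (33.8% of all windows) and TATAAA (12.4%) were also searched on both strands and matched in neither. These matches describe the letters alone, and no measurement of factor binding was made here.

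Each mouse had its own array, and the deposited values are RMA intensities, taken here to log2, so that a difference of 1 is a doubling. The median intensity was 27.5 to 28.6 per array. Pip6e-PMO replicate 2 stood apart from the other treated mice, with a scaled median deviation from the rest of its group of 0.381 against 0.153 to 0.262 on the other 10 arrays, and the main results that rest on it are also given without it. The study reported the lowest treatment efficacy, by RT-qPCR and mass spectrometry, and the least mRNA restoration in a treated sample named T2. If T2 is this mouse, results without it describe the mice in which the treatment worked better. Of the probe sets, 14494 had a mean intensity of at least 30 in at least 1 group and were tested with limma, both members among them, and a call means a p under 0.05 after Benjamini-Hochberg adjustment over these probe sets. The mice are separate animals, and with 3 or 4 of them in a group their number limits the precision. The dystrophin gene itself, read by a probe set that does not separate skipped from unskipped transcripts, had mean log2 intensities of 5.82 in C57, 5.28 in *mdx* and 5.80 in treated mice, with an adjusted p of 0.198 in limma for *mdx* against C57. Of the tissue markers, all 8 of the fast-fibre list passed the minimum. By limma 0 of them were called in any comparison, also at an unadjusted p under 0.05. Of all probe sets tested, 7.06% were called higher and 4.96% lower in *mdx* against C57. The shares were 7.26% and 3.88% in treated against *mdx*, and 15.6% and 8.96% in treated against C57. At an unadjusted p under 0.05 in limma, 3614, 4565 and 5756 probe sets passed in the same order. All 4 neuronal markers read (*Snap25*, *Nefl*, *Nefm* and *Syt1*) lay under the minimum.

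*Eef1a1* mRNA was higher in dystrophic than in wild-type muscle, and *Eef1a2* mRNA was not called different between any of the groups. The log2 intensity of *Eef1a1* was 10.52, 10.29 and 10.19 in the C57 mice, 11.22, 11.23, 11.15 and 11 in the *mdx* mice, and 11.31, 11.50, 11.53 and 11.52 in the treated mice. Every *mdx* mouse lay above every C57 mouse, and every treated mouse lay above every *mdx* mouse. Over all probe sets tested, 1% were ordered in this way without overlap. The mean was 10.33 ± 0.17 (SD, n = 3) for C57, 11.15 ± 0.11 (SD, n = 4) for *mdx* and 11.47 ± 0.10 (SD, n = 4) for treated muscle.

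Between *mdx* and C57 muscle *Eef1a1* rose by 0.82 on the log2 scale (standard error 0.11), or 1.76-fold with a 95% interval of 1.5 to 2.07, and its adjusted p in limma was 0.000542. Among all probe sets tested, 7.06% were called higher and 4.96% lower in this comparison, and 3.08% had a larger rise than *Eef1a1*. The rise stayed between 0.75 and 0.91 when each mouse was left out in turn, and it was called in all 11 of these fits. *Eef1a1* is one of the genes that the study itself picked out for concordant changes in mRNA and protein. The mRNA part of that choice came from these mice, so this rise is not independent evidence of a change. In whole-muscle RNA, more cells that express *Eef1a1* and more *Eef1a1* mRNA per cell cannot be told apart.

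Between treated and *mdx* mice the difference in *Eef1a1* was 0.32 (standard error 0.10), 1.24-fold, in the same direction as the difference between *mdx* and C57 and not back towards the C57 level. Its adjusted p in limma was 0.0591, just short of the threshold, with an unadjusted p of 0.00781 and a 95% interval of 0.10 to 0.53. In this comparison 7.26% of the probe sets tested were called higher and 3.88% lower, and 17% had a larger difference. Without Pip6e-PMO replicate 2 the difference was 0.30 (adjusted p = 0.0523 in limma). The call depended on the fit: a trended and robust prior (adjusted p = 0.0377), array weights (adjusted p = 0.0083) and a repeat of quantile normalization (adjusted p = 0.0228) placed it under the threshold in limma. Against C57, the treated mice were higher in *Eef1a1* by 1.13 (standard error 0.11), 2.19-fold (adjusted p = 8.19e-05 in limma), and without Pip6e-PMO replicate 2 by 1.12. Of all probe sets tested, 15.6% were called higher and 8.96% lower between treated and C57 mice, and 1.26% had a larger rise. These comparisons share the *mdx* or the C57 mice, so they are not independent of each other.

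The log2 intensity of *Eef1a2* was 11.94, 12.09 and 12.04 in the C57 mice, 11.95, 11.86, 12.01 and 12.03 in the *mdx* mice, and 12.09, 12.10, 11.95 and 11.87 in the treated mice. The groups overlapped, and the means of 12.02 ± 0.08 (SD, n = 3), 11.96 ± 0.08 (SD, n = 4) and 12.00 ± 0.11 (SD, n = 4) lay within the spread of the mice. The difference between *mdx* and C57 was -0.06 with a 95% interval of -0.26 to 0.14 (adjusted p = 0.763 in limma), so a loss of more than 0.26 or a gain of more than 0.14 lies outside the interval. Between treated and *mdx* mice it was 0.04 with an interval of -0.15 to 0.23 (adjusted p = 0.788), and between treated and C57 mice -0.02 with an interval of -0.22 to 0.18 (adjusted p = 0.888). Without Pip6e-PMO replicate 2 the differences of the treated mice from *mdx* and from C57 were 0.01 and -0.05. For each member the order of the groups follows from these values: C57, *mdx* and treated for *Eef1a1*, with the neighbours *mdx* and treated not called apart, and no order for *Eef1a2*.

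**Figure D1:**
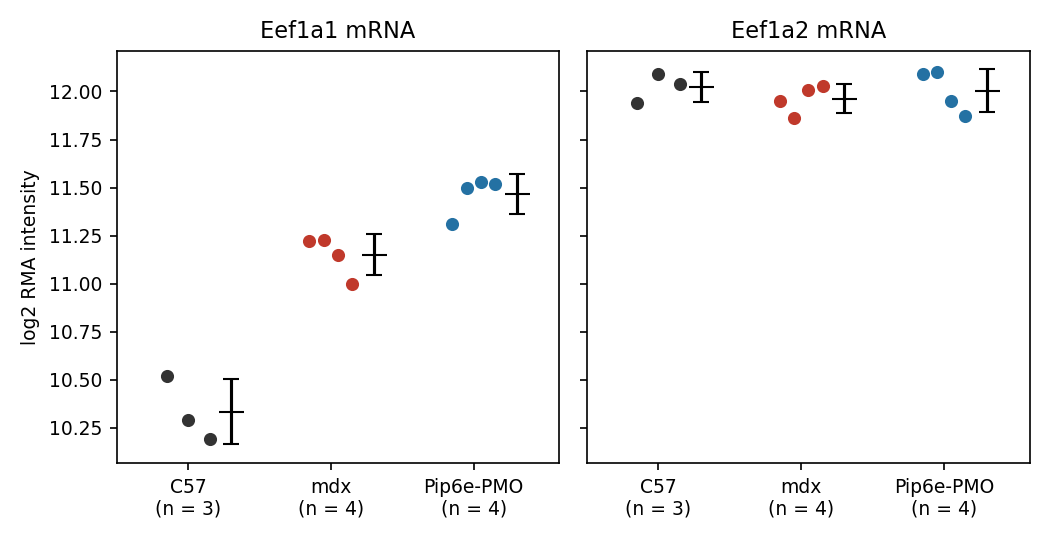
Log2 RMA intensity of *Eef1a1* (left) and *Eef1a2* (right) in each mouse of the C57, *mdx* and Pip6e-PMO-treated groups, with the group mean and SD beside the points. For *Eef1a1* the C57 mice lie between 10.19 and 10.52, the *mdx* mice between 11 and 11.23 and the treated mice between 11.31 and 11.53, while for *Eef1a2* all mice lie between 11.86 and 12.10.

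The test of whether the isoforms changed unequally is their ratio within each mouse, in which any scaling of a whole array cancels. The log2 ratio of *Eef1a1* over *Eef1a2* was -1.42, -1.80 and -1.85 in C57, -0.73, -0.63, -0.86 and -1.03 in *mdx*, and -0.78, -0.60, -0.42 and -0.35 in treated mice. All C57 mice lay below all dystrophic mice, whereas the *mdx* and treated mice overlapped. How many ratios of other genes are ordered in this way was not counted. The means were -1.69 ± 0.24 (SD, n = 3), -0.81 ± 0.17 (SD, n = 4) and -0.54 ± 0.19 (SD, n = 4). Probes differ in brightness, so the height of the ratio does not give the share of either mRNA, and it is read here for differences between mice.

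The ratio was 0.88 higher in *mdx* than in C57 muscle, 1.84-fold, with an exact permutation p of 0.0571, which is the smallest that 3 mice against 4 allow, and 0.0857 after adjustment over the 3 comparisons of the ratio. A fit of the ratio beside all other probe sets in limma, which borrows their spread, gave it a 95% interval of 0.57 to 1.19. Treated mice were 1.15 above C57, 2.22-fold, with the same exact permutation p of 0.0571 and an interval of 0.84 to 1.46 in limma. Between treated and *mdx* mice the ratio differed by 0.28, 1.21-fold, with an exact permutation p of 0.114, where 4 against 4 mice could reach 0.0286, and the interval of -0.01 to 0.56 in limma included 0. Without Pip6e-PMO replicate 2 this difference was 0.30, and that between treated and C57 mice was 1.17.

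**Figure D2:**
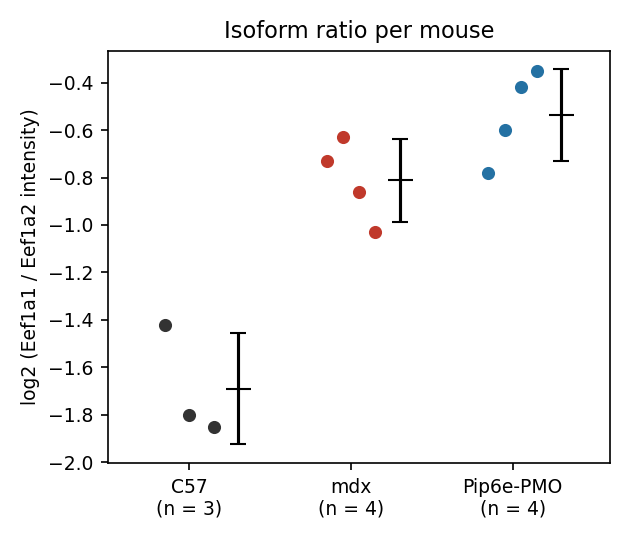
Log2 of the *Eef1a1* intensity over the *Eef1a2* intensity in each mouse, with the group mean and SD beside the points. The 3 C57 mice lie between -1.85 and -1.42, below all *mdx* mice (-1.03 to -0.63) and all treated mice (-0.78 to -0.35), and the *mdx* and treated mice overlap.

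*Eef1a1* has processed pseudogenes in the mouse genome, and 1 transcribed copy, *Gm6548*, has a probe set of its own in the table (10452978, chromosome 17, 79250129 to 79251504, with 20 probes). The mean log2 intensity was 4.66 ± 0.31 (SD, n = 3) for C57, 5.34 ± 0.12 (SD, n = 4) for *mdx* and 5.47 ± 0.24 (SD, n = 4) for treated muscle. *Gm6548* rose in *mdx* muscle by 0.68 (adjusted p = 0.0152 in limma), a call lost without C57 replicate 2 (adjusted p = 0.0835) or 3 (adjusted p = 0.0534), and its C57 mean intensity of 25.7 lay under the minimum of 30. The treated and *mdx* mice differed by 0.13 (adjusted p = 0.596 in limma), or by 0.19 without Pip6e-PMO replicate 2. How far the 2 probe sets share RNA through near-identical sequence was not tested, and no other probe set carried the same values as either member. 

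No gene of the exchange factor complex that recharges eEF1A was called in the main fit. Some other settings did call *Eef1d*, *Eef1g* or *Eef1e1* in comparisons of the treated mice, as given at the end. Of the 5 genes listed for it, all of them tested, 0 passed the adjusted threshold in limma in each of the 3 comparisons, and at an unadjusted p under 0.05 the counts were 0 in *mdx* against C57, 0 in treated against *mdx* and 1 (*Eef1d*) in treated against C57. By the methods' t-test after Benjamini-Hochberg adjustment, 0 of all 30 elongation genes were called in *mdx* against C57 and 0 in treated against *mdx*. *Eef1b2*, the catalytic alpha subunit, differed by -0.07 between *mdx* and C57 (adjusted p = 0.831 in limma). *Eef1d*, the delta subunit, differed by -0.16 (adjusted p = 0.451), and *Eef1g*, the structural gamma subunit, by 0.03 (adjusted p = 0.921). *Vars*, the valyl-tRNA synthetase bound to the complex, differed by -0.20 (adjusted p = 0.342), and *Eef1e1*, a relative that sits in the multisynthetase complex, by 0.01 (adjusted p = 0.989). The differences between treated and *mdx* mice ranged from -0.21 to 0.11 over the same genes. *Eef2*, which translocates the ribosome after each peptide bond, had mean log2 intensities of 12.46, 12.36 and 12.43 in C57, *mdx* and treated mice, with adjusted p of 0.538 for *mdx* against C57 and 0.571 for treated against *mdx* in limma.

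Over the wider elongation machinery, 35 genes were listed in 5 groups (eEF1B, eEF2 with its regulators, eEF1A methyltransferases, eIF5A with related GTPases, and mitochondrial factors). Of these, 33 were found in the table and 30 passed the minimum. In *mdx* against C57, 0 of the 30 were called higher by limma and 2 lower (1 and 5 at an unadjusted p under 0.05), with a median difference of -0.15, beside 7.06% and 4.96% of all probe sets tested and a median of -0.01. In treated against *mdx* mice, 2 were called higher and 1 lower (3 and 2 at an unadjusted p under 0.05), beside 7.26% and 3.88% of all probe sets tested, with a median of -0.01 beside 0.02. In treated against C57 mice, 1 was called higher and 5 lower, beside 15.6% and 8.96% of all probe sets tested. At an unadjusted p under 0.05 in limma the counts were 3 and 11, and the median was -0.18 beside 0.00. Of the 14494 probe sets tested, 3614, 4565 and 5756 had an unadjusted p under 0.05 in limma in these comparisons, in order. The unadjusted counts of elongation genes stand beside these numbers and not beside the shares called. The 6 genes called in treated against C57 were *Dph6* (0.54, listed as *Atpbd4*), for diphthamide synthesis on eEF2, and, lower, *Eef2k*, *Tsfm*, the eEF1A lysine methyltransferase *Eef1akmt1* (-0.72, listed as *N6amt2*), *Dhps* (-0.33), for hypusine synthesis on eIF5A, and the selenocysteine factor *Eefsec* (-0.29), of which all but *Eef2k* and *Tsfm* were named after their values were seen. The highest difference in *mdx* among the 30 genes was 0.31, under the 0.82 of *Eef1a1*. Single mice moved these counts. In *mdx* against C57 the count was 0 without C57 replicate 2 and 1 without C57 replicate 3, *mdx* replicates 1 or 2 or Pip6e-PMO replicate 3. In treated against *mdx* it was 0 without any of Pip6e-PMO replicates 1, 3 and 4 and of *mdx* replicates 3 and 4. In treated against C57 it was 1 without C57 replicates 2 or 3, 3 without Pip6e-PMO replicates 1, 3 or 4, and 12 without Pip6e-PMO replicate 2. The shares of all probe sets called in these fits are not given, so such counts cannot be set beside them.

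*Eef2k*, the kinase that phosphorylates eEF2 and slows elongation, has 2 probe sets, and only the one with the higher mean intensity is given here. By that probe set *Eef2k* fell in *mdx* muscle. Its log2 intensity lay between 8.61 and 8.79 over the C57, between 7.85 and 8.34 over the *mdx* and between 8.18 and 8.32 over the treated mice. From C57 to *mdx* it changed by -0.53 (standard error 0.12, adjusted p = 0.011 in limma), and the call was lost without C57 replicate 2 (adjusted p = 0.061). The treated mice differed from C57 by -0.44 both with (adjusted p = 0.0194) and without Pip6e-PMO replicate 2, a call lost without C57 replicate 2 (adjusted p = 0.0791), C57 replicate 3 (adjusted p = 0.0547) or Pip6e-PMO replicate 3 (adjusted p = 0.0507). *Tsfm*, the mitochondrial exchange factor EF-Ts, fell by 0.50 in *mdx* (adjusted p = 0.0356 in limma), with means of 7.69 ± 0.28 (SD, n = 3) in C57 and 7.19 ± 0.12 (SD, n = 4) in *mdx*. That call was held in 5 of the 11 fits that left a mouse out, and was lost without C57 replicates 2 or 3, *mdx* replicates 1, 2 or 4, or Pip6e-PMO replicate 3 (adjusted p up to 0.152). In treated against C57 mice *Tsfm* differed by -0.48 (adjusted p = 0.0273), a call held in 6 of the 11 such fits and lost without C57 replicates 2 or 3 or any of Pip6e-PMO replicates 1, 3 and 4 (adjusted p up to 0.124).

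In treated against *mdx* mice the genes called higher were both mitochondrial. *Gfm1*, the mitochondrial translocase EF-G1, lay between 7.05 and 7.58 in *mdx* and between 7.66 and 8.42 in treated mice. This was a rise of 0.72 (adjusted p = 0.0237 in limma). *Guf1*, the mitochondrial relative of the bacterial factor LepA, lay between 4.98 and 5.64 in *mdx* and between 5.74 and 6.25 in treated mice, a rise of 0.71 (adjusted p = 0.0228). Without Pip6e-PMO replicate 2 these rises were 0.86 and 0.80. Both calls were lost without *mdx* replicates 3 or 4 or without Pip6e-PMO replicates 1, 3 or 4, with adjusted p up to 0.0697 for *Gfm1* and 0.0692 for *Guf1*. *Gfm2*, the ribosome recycling factor EF-G2, named as the third of these factors after its values were seen, differed by 0.54 (adjusted p = 0.0769). *Eif5a*, the factor that relieves stalled ribosomes and the 1 gene called lower, also has 2 probe sets and was read by the one with the higher mean intensity. *Eif5a* was at 11.19 to 11.51 over the *mdx* and 10.81 to 11.25 over the treated mice, a difference of -0.38 (adjusted p = 0.047). It was called in 1 of the 11 fits with a mouse left out, the one without Pip6e-PMO replicate 2 (adjusted p = 0.007), with adjusted p of up to 0.126 in the others.

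**Figure D3:**
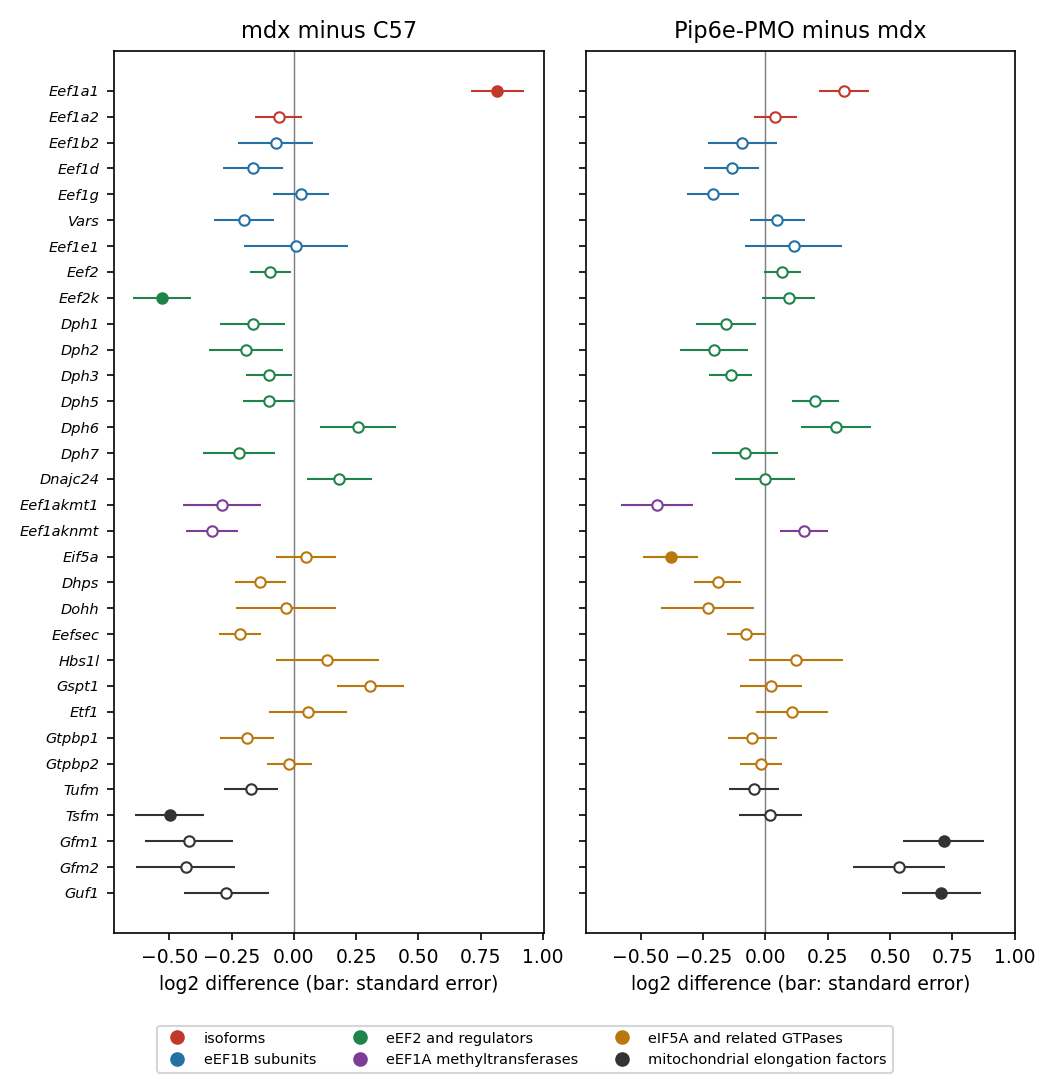
Log2 difference with its standard error for the 2 isoforms and the 30 tested genes of the elongation machinery, in *mdx* minus C57 (left) and Pip6e-PMO minus *mdx* (right), coloured by group. Filled points passed an adjusted p under 0.05 in limma: *Eef1a1*, *Eef2k* and *Tsfm* on the left, and *Eif5a*, *Gfm1* and *Guf1* on the right.

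*Eef1a1* and *Eef1a2* are one of several pairs in which a widely expressed, fetal or cardiac form is exchanged for an adult skeletal muscle form. The same ratio, other form over adult form, was taken for 15 further pairs, all tested on both sides. In *mdx* against C57 the ratio was higher for 13 of the 15 pairs, with a median of 0.26 and a range of -0.18 to 2.50, beside 0.88 for *Eef1a1* over *Eef1a2*. Larger differences were measured for 3 pairs. These were *Chrng* over *Chrne*, the fetal and adult acetylcholine receptor subunits (2.50), *Actc1* over *Acta1*, cardiac and skeletal alpha-actin (1.36), and *Tnnt2* over *Tnnt3*, cardiac and fast skeletal troponin T (1.13). *Myh8* over *Myh4*, perinatal and adult fast myosin, was at 0.86, and *Eno1* over *Eno3*, ubiquitous and muscle enolase, at 0.59. As with *Eef1a2*, no adult form was called in *mdx* by limma (adjusted p from 0.329 to 0.986), whereas *Actc1* (1.40), *Tnnt2* (1.12), *Chrng* (2.24), *Myh8* (0.87) and *Eno1* (0.64) were called higher. The C57 mean of *Chrng*, 4.18 on the log2 scale, was below the minimum, so the size of its difference is limited by background.

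In treated against *mdx* mice, the ratio was lower for 14 of the 15 pairs, with a median of -0.28 and a range from -1.21 to 0.05, beside 0.28 for *Eef1a1* over *Eef1a2*. The single pair above 0 was *Cox7a2* over *Cox7a1*, subunits of cytochrome c oxidase, at 0.05. The pairs counted as lower include *Pfkl* over *Pfkm* at -0.005 and *Myh8* over *Myh4* at -0.06, which hardly differed. *Tnnt2* over *Tnnt3* differed by -0.98 and *Eno1* over *Eno3* by -0.47, and the single genes *Tnnt2* (-0.93, adjusted p = 0.0304), *Eno1* (-0.54, adjusted p = 0.0266), *Pgam1* (-0.54, adjusted p = 0.0304) and *Slc25a5* (-0.40, adjusted p = 0.0264) were called lower by limma. In treated against C57 mice the pairs had a median of 0.08, with 9 above and 6 below 0, beside 1.15 for *Eef1a1* over *Eef1a2*, and 1 pair, *Chrng* over *Chrne*, was higher (1.3). Without Pip6e-PMO replicate 2, 14 of the 15 pairs were again lower in treated than in *mdx* mice, with a median of -0.43 and a range from -1.66 to 0.03, beside 0.30 for *Eef1a1* over *Eef1a2*. Against C57 the median was then -0.06, with 5 above and 10 below 0, and 0 pairs exceeded the 1.17 of *Eef1a1* over *Eef1a2* (*Chrng* over *Chrne* was at 0.85 and *Actc1* over *Acta1* at 1.06). In the same fit *Tnnt2* (-1.10), *Eno1* (-0.65), *Pgam1* (-0.67) and *Slc25a5* (-0.40) stayed under the threshold in treated against *mdx*, and *Chrng* (-1.65, adjusted p = 0.00391), *Cox6a1* (-0.69, adjusted p = 0.00235), *Ckb* (-0.55, adjusted p = 0.0244) and *Cox8a* (-0.34, adjusted p = 0.0282) joined them. The pairs are given as a description beside the isoforms, with no test between them, and the first of these differences shares the *mdx* mice with the second and the C57 mice with the third.

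**Figure D4:**
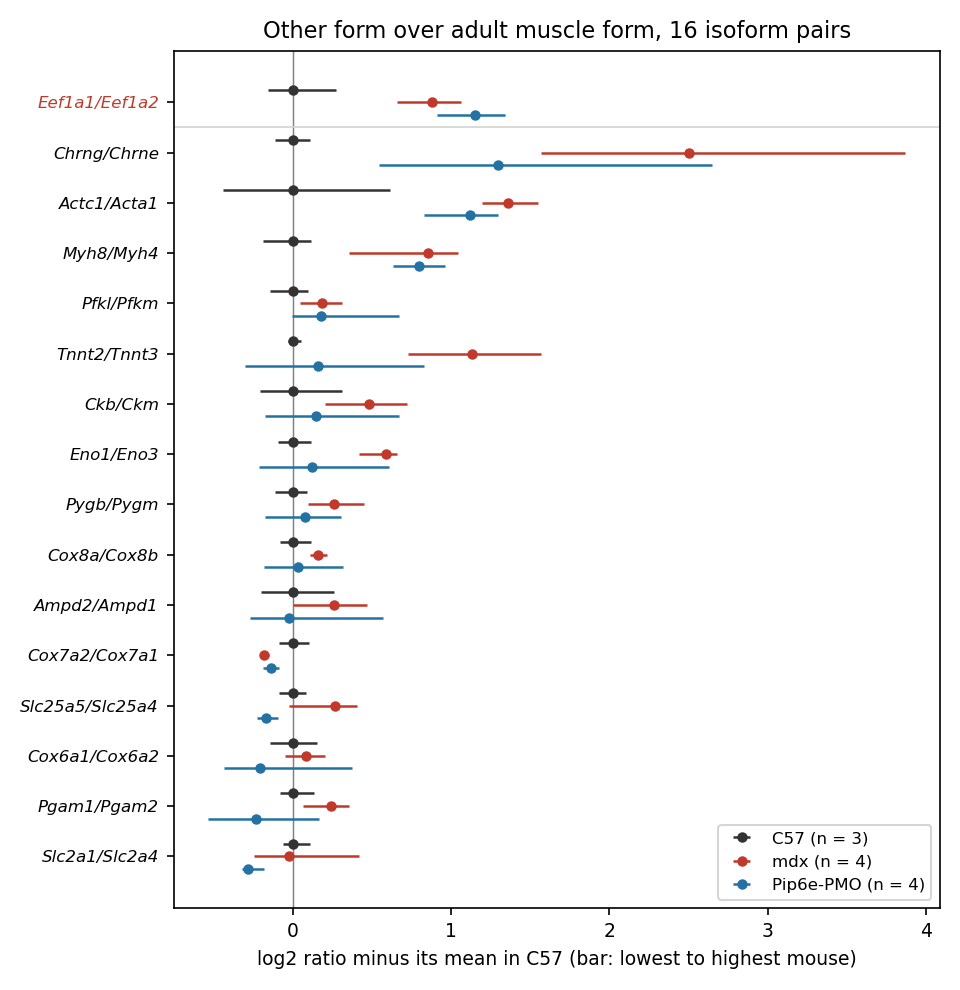
Log2 ratio of the other form over the adult muscle form, less its mean in C57, for *Eef1a1*/*Eef1a2* (top) and 15 further pairs in order of the treated mean, with points at group means and bars from the lowest to the highest mouse. The treated mean lies to the right of the *mdx* mean for *Eef1a1*/*Eef1a2* (1.15 and 0.88) and to the left of it for 14 of the 15 other pairs.

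Markers of several other cell types differed between the groups. In *mdx* against C57, 7.06% of all probe sets tested were called higher and 4.96% lower. The shares were 7.26% and 3.88% in treated against *mdx* mice, and 15.6% and 8.96% in treated against C57 mice. At an unadjusted p under 0.05 in limma, 3614, 4565 and 5756 of the 14494 probe sets passed, in the same order. The lists are short, and no list was tested against these shares. All 7 regenerating-fibre markers (*Myh3*, *Myh8*, *Myog*, *Chrng*, *Ncam1*, *Tmem8c* and *Myl4*) were called higher in *mdx* than in C57 by limma, and their summed intensity ranged from 1120 to 1650 over the C57, from 3502 to 5914 over the *mdx* and from 1757 to 4046 over the treated mice, with 1 called lower in treated than in *mdx*. Of 8 macrophage markers, 6 were called higher in *mdx* (sums of 1049 to 1482, 2806 to 4437 and 2189 to 2972 in the same order, with *Cd163* under the minimum), and 1 was called higher and 2 lower in treated than in *mdx*. Of 6 fibroblast and matrix markers, 2 were higher in *mdx* and 4 in treated mice than in C57, and 0 were called between treated and *mdx* mice by limma (1 at an unadjusted p under 0.05, sums of 4525 to 6300, 6638 to 8116 and 6190 to 10629). Of 4 endothelial markers, 0 were called in *mdx* against C57 by limma (0 also at an unadjusted p under 0.05), 2 were called higher in treated than in *mdx* and 3 higher in treated than in C57 (sums of 1134 to 1703, 1453 to 1860 and 1588 to 2519). Of 4 adipocyte markers, 0 were called in *mdx* against C57 by limma (0 also at an unadjusted p under 0.05), 3 were called lower in treated than in *mdx* and 2 lower in treated than in C57 (sums of 1090 to 1421, 1044 to 1703 and 1095 to 1118). Of 5 peripheral nerve markers, 2 were called lower in *mdx* and 2 in treated mice than in C57, and 0 between treated and *mdx* mice by limma (1 at an unadjusted p under 0.05, sums of 1636 to 2563, 1240 to 1590 and 1179 to 1412, with *S100b* under the minimum). Of 5 slow-fibre markers, 1 was called higher in *mdx* than in C57, 2 lower in treated than in *mdx* and 1 lower in treated than in C57 (sums of 243 to 293, 468 to 1640 and 171 to 789, with *Myh7* under the minimum). The satellite cell list of 4 genes (with *Myf5* under the minimum) and the blood list of 3 genes had 0 calls by limma in each comparison, with 1, 0 and 1 genes and with 0, 0 and 0 genes at an unadjusted p under 0.05. Their sums overlapped between all groups, at 651 to 857, 753 to 1130 and 619 to 937 for satellite cells and at 7695 to 12197, 8072 to 11331 and 7484 to 8721 for blood.

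Several of these counts moved without Pip6e-PMO replicate 2. The share of all probe sets called in that fit is not given, so these counts cannot be read as particular to the markers. In treated against *mdx* mice, 6 of the 7 regenerating-fibre markers were then called lower (treated sums of 1757 to 2415), 4 slow-fibre markers lower (171 to 313), 3 endothelial markers higher (2147 to 2519) and 1 fibroblast marker higher (6190 to 8188), while macrophage markers stayed at 1 higher and 2 lower (2189 to 2435) and adipocyte markers were at 1 higher and 3 lower. Against C57, 3 regenerating-fibre, 5 macrophage, 4 fibroblast and 4 endothelial markers were then higher, beside 4, 5, 4 and 3 with all mice. In the same comparison 1 satellite cell, 1 slow-fibre and 2 peripheral nerve markers were lower, and adipocyte markers were at 1 higher and 3 lower. The endothelial sum of these 3 treated mice lay above that of every *mdx* mouse, and their regenerating-fibre and macrophage sums lay below. How often sums of other genes separate in this way was not counted. The part of any of these cells in the *Eef1a1* level was not tested. 

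The genes whose log2 intensity followed each isoform most closely were ranked by Pearson's r over the 11 mice among 11842 gene symbols, as a description, since the mice fall into 3 groups. For *Eef1a1* they were *Antxr2* (r = 0.985), a receptor that binds matrix proteins, *Fam124b* (0.984), *Nid1* (0.983), a basement membrane protein, *Cdk14* (0.980), a kinase, and *Mex3b* (0.979), an RNA-binding protein, and 40 genes reached 0.95. Once the group means were removed, r for these 5 genes was 0.892, 0.734, 0.638, 0.667 and 0.717. *Antxr2* had means of 7.12, 7.94 and 8.45 in C57, *mdx* and treated mice, and was called higher in treated than in *mdx* by 0.50 (adjusted p = 0.0277 in limma), or 0.52 without Pip6e-PMO replicate 2 (adjusted p = 0.0154). In the fit without that mouse *Fam124b* (0.49, adjusted p = 0.0238) and *Cdk14* (0.30, adjusted p = 0.0421) were called as well. *Fam124b* had C57 and *mdx* means of 3.42 and 4.57, and those of *Cdk14* (4.87) and *Mex3b* (4.42) in C57 were low as well, so background bears on their values. For *Eef1a2* the closest genes were *Kdm6b* (r = 0.957), a histone demethylase, *Synpo2l* (0.947), a Z-disc protein, *Tmem63b* (0.946), *Wiz* (0.944) and *Arid1a* (0.941), a chromatin remodelling subunit, and 1 gene reached 0.95. These genes were called in none of the comparisons by limma, and their r within groups was 0.936 to 0.962, so the likeness to *Eef1a2* lay between mice of the same group.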

How the data were processed

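RNA from the TA of 11 mice was measured on Affymetrix Mouse Gene ST arrays, 1 array a mouse. In Expression Console, the authors corrected background by RMA, normalized the arrays by sketch quantiles and summarized probes by median polish. The deposited values are linear intensities, rounded so that their log2 lies on whole hundredths. Quantile normalization gives all arrays nearly the same distribution, so a change of most mRNAs together would not be seen. The top of the range still differed by group. The highest log2 intensity was 13.63 to 13.66 on the *mdx* arrays, 13.81 to 13.91 on the C57 and 13.82 to 13.86 on the treated arrays. The cause of this difference was not tested. The stated removal of probe sets below 30 in all groups was applied here as a mean intensity of at least 30 in at least 1 group.

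Groups were taken from the labels. A gene with several probe sets was represented by the one with the highest mean log2 intensity over the 11 mice. With Python 3.11.15, pandas 2.3.3, NumPy 2.4.6 and R 4.3.3, the log2 intensities of all 11 mice were fitted in limma 3.58.1 (lmFit, eBayes) with a mean for each group, and p-values were two-sided and adjusted by Benjamini-Hochberg over all probe sets tested. The ratio of the isoforms was compared by two-sided exact permutation tests over mice (SciPy 1.17.1). The fit was tested on simulated data. Plots were drawn with matplotlib 3.10.9. Replicate numbers name different animals and were not used to pair mice.

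The members and the gene lists were chosen with earlier results of these data known. The genes named are the isoforms, the genes of the elongation lists called in *mdx* against C57 or in treated against *mdx* mice with *Eef2* and the eEF1B genes, the 5 genes most like each isoform, and the isoform pairs. *Gfm2* and the genes called in treated against C57 mice alone were added after their values were seen. Other *Eef1a1* pseudogenes and the protein sequences were not analysed here. The alternatives were the methods' t-test on log2 and on linear values, a fit of the compared groups alone, a trended and robust prior, array weights, other signal filters, median-centred arrays, a repeat of quantile normalization, a replicate block, other forms of the ratio and leaving out each mouse. The ratio with *Gm6548* in place of *Eef1a1*, and the pairs, markers and most alike genes without Pip6e-PMO replicate 2, were added after seeing the data.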

Additional observations from a re-analysis of the deposited data

Results flagged for a closer look

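Within groups of 4 mice, 15 quantities (the isoforms, their ratio, *Gm6548*, the eEF1B genes, *Eef2*, and the elongation genes called in *mdx* against C57 or in treated against *mdx* mice) were searched for a mouse far from the others, by Dixon's test of the gap against the range. Chance flags about 1 in 20 groups, and 3 of the 30 groups were flagged. For *Eef1a1*, Pip6e-PMO replicate 1 was the lowest of the treated mice at 11.31, against 11.50 to 11.53 in the others. Without it the difference between treated and *mdx* mice was 0.37. For *Eef1d*, *mdx* replicate 3 was the highest of its group at 7.36 against 7.32 in all the others, a gap of a few hundredths in values that resolve to a hundredth. Pip6e-PMO replicate 1 was also the lowest treated mouse for *Eef1d*, at 6.89 against 7.27 to 7.32. The causes were not tested.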

How the results depend on the processing

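The rise of *Eef1a1* in *mdx* over C57 and in treated over C57 mice kept its call under all 10 other settings, at 0.78 to 0.84 and 1.09 to 1.22. The difference between treated and *mdx* mice passed the threshold with a trended and robust prior (0.32), array weights (0.35) and repeated quantile normalization (0.43), and with the remaining settings and each mouse left out its adjusted p was 0.0523 to 0.153. For *Eef1a2* the sign turned with array weights in treated against *mdx* (-0.014), and with repeated quantile normalization in treated against C57 (0.071), where leaving out a mouse gave -0.063 to 0.023. Fitted in limma, the isoform ratio passed in *mdx* (0.88, adjusted p = 0.00215) and treated mice (1.15, adjusted p = 0.000334) against C57. With *Gm6548* in place of *Eef1a1* it differed by 0.74, 0.09 and 0.83 in *mdx* against C57, treated against *mdx* and treated against C57. The cause of these changes was not tested.

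The counts of elongation genes called moved most, and the shares of all probe sets called under the other settings are not given. In *mdx* against C57 (2) they were 0 and 0 by the methods' t-test on log2 and linear values, 4 with array weights, 1 with the replicate block and 0 to 2 with a mouse left out. In treated against *mdx* (3) they were 0, 0, 6, 0 and 0 to 4. In treated against C57 (6) they were 1, 1, 14, 3 and 1 to 12, with 3 when the compared groups were fitted alone and 10 after centring. In treated against C57 mice *Eef1d* was called after centring and repeated quantile normalization, and *Eef1g* and *Eef1e1* with array weights, which also called *Eef1g* in treated against *mdx* (-0.30, adjusted p = 0.03). Signs turned near 0. With array weights *Eef1b2* was at 0.091, 0.0095 and 0.10 in the 3 comparisons, and *Vars* (-0.032) and *Tsfm* (-0.041) turned in treated against *mdx*. After centring, repeated quantile normalization and the replicate block, *Eef1g* was at -0.013, -0.027 and -0.0067 and *Eef1e1* at -0.033, -0.015 and -0.066 in *mdx* against C57. Repeated quantile normalization also turned *Tsfm* in treated against *mdx* (-0.043) and *Eef2* in treated against C57 (0.050).

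With a mouse left out, the ranges that crossed 0 were, in treated against *mdx*, -0.17 to 0.017 for *Eef1b2*, -0.029 to 0.11 for *Vars*, -0.039 to 0.31 for *Eef1e1*, -0.012 to 0.15 for *Eef2k* and -0.056 to 0.073 for *Tsfm*. In *mdx* against C57 they were -0.0075 to 0.083 for *Eef1g*, -0.083 to 0.10 for *Eef1e1* and -0.0033 to 0.10 for *Eif5a*, and in treated against C57 -0.030 to 0.32 for *Eef1e1*.

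Same-numbered mice did not deviate together (r from -0.297 to 0.153), so the replicate block, which left the rise of *Eef1a1* in *mdx* at 0.83 (adjusted p = 0.00552), pairs unrelated mice. Each isoform has 1 probe set, so the mean of several and other probe sets could not be run. Intensities near 30 are close to background and compress differences.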
